A study of Homo sapiens with 12 samples.

Results

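The 10 genes described here set or mark the epithelial or mesenchymal identity of a cell, and were chosen by symbol from the 58735 genes of the count table. The rule uses no measured value, but the choice was made with earlier results of these data known. They comprise 4 genes of epithelial cells (CDH1, EPCAM, GRHL2 and ESRP1) and 6 genes of mesenchymal cells (CDH2, VIM, ZEB1, ZEB2, SNAI2 and TWIST1). PolyA RNA was sequenced from 2 human endometrial cell lines. HEC-1A is an epithelial line from an endometrial adenocarcinoma, and T-HESC is a fibroblastic line of endometrial stroma immortalized with telomerase. For 32 h, each line received AG-205 at 15 µM, a small molecule used as a ligand of the membrane protein PGRMC1, or the vehicle DMSO. The paper that reported these data concludes that AG-205 is not specific for PGRMC1. The 4 groups have 3 libraries each, from 3 independent experiments.

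Each tissue layer is represented by a single line, so a difference between the lines is also one between a cancer and an immortalized line and between donors, and these cannot be told apart. The count table holds the number of reads per gene. Total counts ranged from 7168542 to 15178276 per library. Levels are given as CPM, the counts scaled to a common library total, after correction by the TMM method of edgeR, and a gene that never exceeded 3 counts within a group is described as at the floor there. With DMSO, 8 epithelial markers summed to 1310 to 1480 CPM in HEC-1A and to 241 to 350 CPM in T-HESC, and 8 stromal markers to 82.7 to 86.4 CPM and 18100 to 27100 CPM. With AG-205 the epithelial sums were 2000 to 2070 CPM and 223 to 393 CPM in these lines. The stromal sums were then 68.6 to 72.7 CPM and 13500 to 21100 CPM. In edgeR's quasi-likelihood test with DMSO, 6 epithelial markers were higher in HEC-1A (adjusted p under 0.05 and a fold over 2). In that test 1 was lower, MUC1 (-4.14 on the log2 scale, adjusted p = 9.92e-05). Of all genes tested, 22.3% passed in each direction. Most markers of each list exceeded 3 counts in 1 or more libraries of both lines with DMSO. This held for 7 of the 8 epithelial ones in T-HESC and 7 of the 8 stromal ones in HEC-1A. The others, CDH1 in T-HESC and HAND2 in HEC-1A, were at the floor. A marker above the floor could still be low, as EPCAM was in T-HESC with DMSO (4, 6 and 2 counts). The endothelial markers PECAM1, CDH5 and KDR and the leukocyte markers CD3E and CD68 were at the floor in all groups, whereas VWF reached 14 counts in T-HESC and CD14 18 in T-HESC and 7 in HEC-1A. TEK, a receptor best known from endothelium, reached 412 to 1054 counts in T-HESC and at most 1 in HEC-1A, and the leukocyte gene PTPRC had 1 to 18 counts in T-HESC and none in the other line. In T-HESC, the AG-205 library of replicate 1 stood apart on the first principal component, with a score of 89.3 against -37.9 to 2.77 in the other 5 libraries of that line, so values without it are given for the members and for several other genes.

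Epithelial cells are held together by the cadherin CDH1, whereas mesenchymal cells carry other cadherins and a cytoskeleton built on the intermediate filament vimentin (VIM). The transcription factors ZEB1, ZEB2, SNAI2 and TWIST1 are known to repress epithelial genes, and GRHL2 and the splicing factor ESRP1 to maintain the epithelial programme. In the endometrium, epithelium and stroma stand side by side, the stroma itself being of mesenchymal origin.

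The 4 epithelial genes were expressed in the 6 HEC-1A libraries and were at or close to 0 in the 6 T-HESC libraries, and the 6 mesenchymal genes were many times higher in T-HESC. No member passed the test of AG-205 against DMSO in a line where it could be tested. The plot of levels in the 12 libraries shows both features.

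**Figure D1:**
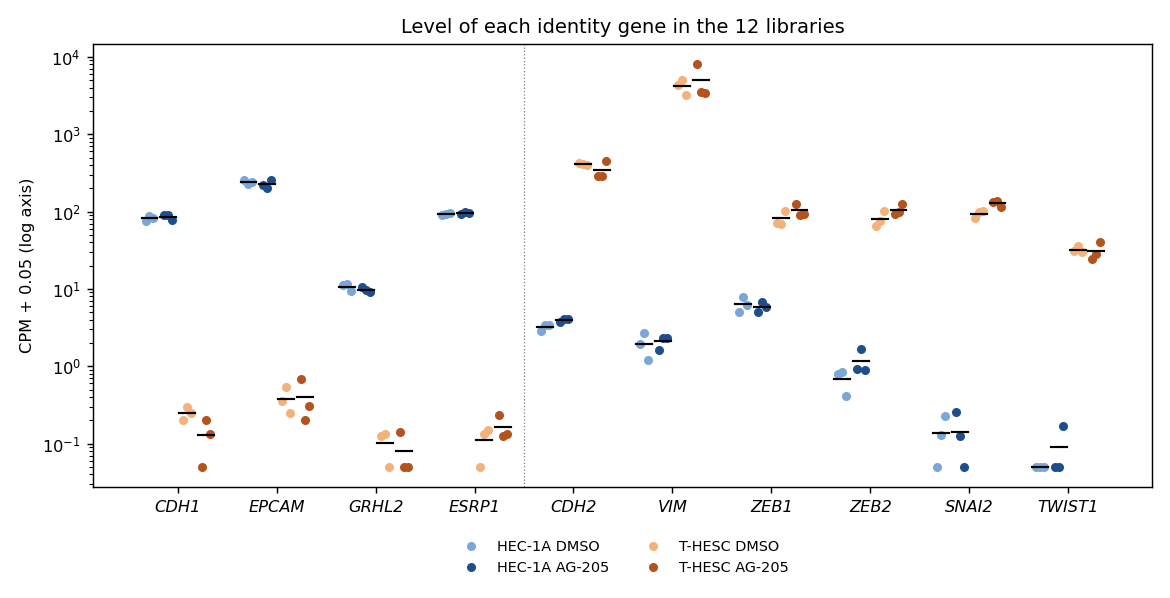
Level of the 10 genes in each library, as CPM plus 0.05 on a log axis, with the epithelial genes left and the mesenchymal genes right of the dotted line. Points are single libraries, bars are the mean of the 3 libraries of a group, and for each gene the 6 libraries of one line lie apart from the 6 of the other.

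CDH1 encodes E-cadherin, the adhesion protein of epithelial adherens junctions (chr16:68737292-68835537, plus strand, GRCh38). In HEC-1A it had 927, 1101 and 920 counts with DMSO and 1334, 1217 and 648 counts with AG-205, or 82.1 ± 5.75 and 86.0 ± 7.43 CPM (SD, n = 3). In T-HESC it had 2, 3 and 2 counts with DMSO and 0, 2 and 1 counts with AG-205. The gene was thus at the floor in every T-HESC library, and the lowest HEC-1A library was well above the highest T-HESC library. Taking 3 counts per library as the limit, CDH1 was at least 318-fold higher in HEC-1A with DMSO and at least 343-fold higher with AG-205, or 359-fold without the library that stood apart. Such bounds, here and below, refer to the observed counts. They leave out counting error, which matters where a library had 2 or 3 counts.

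EPCAM encodes an epithelial cell adhesion molecule of the surface membrane (chr2:47345158-47387601, plus strand). It had the highest level per kilobase of the 4 in HEC-1A, with 256, 230 and 244 CPM with DMSO and 219, 204 and 255 CPM with AG-205. T-HESC held 4, 6 and 2 counts of EPCAM with DMSO and 7, 2 and 3 with AG-205, so that the gene was just above the floor there. The HEC-1A level exceeded that of T-HESC by 9.46 (SE 0.186) on the log2 scale with DMSO and by 9.35 (SE 0.455) with AG-205 (adjusted p = 4.18e-09 and 3.51e-06, edgeR's quasi-likelihood test). Without the T-HESC library that stood apart, EPCAM was at the floor with AG-205 in the remaining 2, at 2 and 3 counts. Set against 3 counts per library, it was 942-fold higher in HEC-1A. This value is close to the observed ratio and is no lower limit once counting error is included.

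GRHL2 and ESRP1, both on chromosome 8, act inside the cell. GRHL2 is a transcription factor of the grainyhead family that activates epithelial genes, CDH1 among them. Its counts in HEC-1A were modest, at 137, 145 and 104 with DMSO and 156, 129 and 75 with AG-205, or 10.7 ± 1.2 and 9.70 ± 0.846 CPM (SD, n = 3). In T-HESC, 3 of the 6 libraries had 1 count and the other 3 had none. GRHL2 was at least 41.5-fold higher in HEC-1A with DMSO and at least 38.6-fold higher with AG-205, or 40.5-fold without that library.

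ESRP1 is an RNA-binding protein that directs epithelial patterns of splicing. In HEC-1A it stood at 89.7, 94 and 94.8 CPM with DMSO and at 93.7, 100 and 94.9 CPM with AG-205. The 6 libraries differed by no more than 1.11-fold, the narrowest range among the 10 genes in their higher line. T-HESC libraries had between 0 and 2 counts. The level in HEC-1A was at least 360-fold higher with DMSO and at least 383-fold higher with AG-205, or 401-fold without that library.

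CDH2 encodes N-cadherin, the cadherin of mesenchymal and neural cells (chr18:27932879-28177946, minus strand). T-HESC held 428, 412 and 405 CPM with DMSO and 287, 285 and 452 CPM with AG-205. HEC-1A was not free of it, with 34, 42 and 38 counts with DMSO and 54, 54 and 34 with AG-205, or 3.18 ± 0.338 and 3.91 ± 0.203 CPM (SD, n = 3). In bulk RNA, a low level in every cell and expression by a few cells cannot be told apart. The highest HEC-1A library lay 70.0-fold below the lowest T-HESC library. The line difference of CDH2 (HEC-1A minus T-HESC, log2) was -7.01 (SE 0.124) with DMSO and -6.44 (SE 0.314) with AG-205, and -6.57 without the library that stood apart.

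Both cadherins were also set against each other within a library. CDH1 made up 96.5%, 96.3% and 96.0% of the summed CDH1 and CDH2 counts in HEC-1A with DMSO and 96.1%, 95.8% and 95% with AG-205. The lowest exact (Clopper-Pearson) 95% interval among these was 93.1% to 96.5%, and it overlapped those of the other 5 libraries. In T-HESC the share ran from 0%, with an upper bound of 0.117%, to 0.0602%, with an interval of 0.0124% to 0.176%. These intervals cover counting error only. No HEC-1A library approached a T-HESC library in this share.

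VIM encodes vimentin (chr10:17228241-17237593, plus strand), and showed the widest gap. In T-HESC it reached 4320, 5030 and 3200 CPM with DMSO and 8070, 3530 and 3450 CPM with AG-205. The value of 8070 CPM came from the library that stood apart, and the other 5 libraries ranged from 3200 to 5030 CPM. HEC-1A had 23, 33 and 13 counts of VIM with DMSO and 23, 31 and 19 with AG-205, or 1.89 ± 0.730 and 2.04 ± 0.411 CPM (SD, n = 3). Its lowest T-HESC library was 1220-fold above its highest HEC-1A library. The line difference was -11.07 (SE 0.325) with DMSO and -11.26 (SE 0.613) with AG-205 on the log2 scale, and -10.76 without the library that stood apart. Over the 8 stromal markers the line difference with DMSO ran from -11.36 to -3.40, with a median of -10.66. COL1A2 (-11.22) and COL3A1 (-11.36), also abundant in T-HESC, lay close to VIM. Whether the few VIM reads of the HEC-1A libraries stem from HEC-1A cells was not tested.

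ZEB1 encodes a zinc finger repressor of CDH1 and other epithelial genes (chr10:31318495-31529814, plus strand), and showed the narrowest gap. HEC-1A had 61, 97 and 69 counts with DMSO and 74, 91 and 48 with AG-205, or 6.30 ± 1.36 and 5.83 ± 0.838 CPM (SD, n = 3). T-HESC had 71.9, 69.4 and 103 CPM with DMSO and 127, 91.0 and 93.7 CPM with AG-205. The groups of the 2 lines did not overlap, but only 9.00-fold parted the nearest libraries, and the mean of HEC-1A was 6.54% of that of T-HESC. The line difference of ZEB1 was -3.67 (SE 0.218) with DMSO and -4.15 (SE 0.259) with AG-205 on the log2 scale, and -3.99 without the library that stood apart.

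The stretches upstream of these 2 genes are shown because VIM and ZEB1 were the ends of that range among the 4 members with an entry in the RefSeq promoter table used (VIM, ZEB1, ZEB2 and CDH2). Each is the 250 bases before an annotated start, on the plus strand of GRCh38.p14. The motif searched was CANNTG, the core bound by many transcription factors of the TWIST, SNAI and ZEB groups, which is the same on both strands, and CAGGTG with its reverse complement CACCTG as a subset of it. Matches are in capitals. The VIM stretch lies at chr10:17227991-17228240 and the ZEB1 stretch, the first of 7 windows listed for that gene, at chr10:31318167-31318416.
VIM: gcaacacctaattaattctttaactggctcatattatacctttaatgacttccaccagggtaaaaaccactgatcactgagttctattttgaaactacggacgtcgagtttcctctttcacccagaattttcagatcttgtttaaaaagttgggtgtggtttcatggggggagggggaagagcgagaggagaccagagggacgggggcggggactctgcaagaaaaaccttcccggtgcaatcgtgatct
ZEB1: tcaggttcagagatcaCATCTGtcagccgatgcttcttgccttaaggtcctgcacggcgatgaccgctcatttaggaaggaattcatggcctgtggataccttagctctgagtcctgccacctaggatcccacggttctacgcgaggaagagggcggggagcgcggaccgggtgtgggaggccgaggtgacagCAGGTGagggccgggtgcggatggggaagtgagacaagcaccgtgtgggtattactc

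The VIM stretch held 0 matches of CANNTG and the ZEB1 stretch 2, of which 1 was CAGGTG. Over the 7 ZEB1 windows the matches of CANNTG ran from 0 to 2, so this contrast depends on the start chosen. Over all 35116 windows of the same length, 61.8% held CANNTG and 17.5% held CAGGTG or its complement. GC content was 46% upstream of VIM and 59.2% upstream of ZEB1, beside a median of 58% over all windows. These are matches of letters in sequence and no evidence of binding.

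ZEB2, the other repressor of the ZEB pair (chr2:144364364-144521057, minus strand), had 871, 918 and 1019 counts in T-HESC with DMSO and 1019, 1320 and 1468 with AG-205, or 81.0 ± 18.6 and 106 ± 16.6 CPM (SD, n = 3). HEC-1A held 9, 10 and 4 counts with DMSO and 13, 22 and 7 with AG-205. Per kilobase of transcript, HEC-1A with DMSO held 1.06 CPM of ZEB1 and 0.0681 CPM of ZEB2, and the libraries did not overlap. The line difference of ZEB2 was -6.95 (SE 0.280) with DMSO and -6.52 (SE 0.343) with AG-205 on the log2 scale, and -6.61 without the library that stood apart.

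ZEB1 and ZEB2 transcripts are textbook targets of the miR-200 family, small RNAs of epithelial cells whose genes the ZEB proteins repress in turn. The mature sequences are shown because the seed is the stretch that pairs with both ZEB transcripts, and because 1 host transcript of the family was counted. From RefSeq, with the seed (bases 2 to 8) in capitals, 2 members share the seed AACACUG and 3 the seed AAUACUG.
hsa-miR-141-3p: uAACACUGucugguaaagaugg
hsa-miR-200a-3p: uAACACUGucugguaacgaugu
hsa-miR-200b-3p: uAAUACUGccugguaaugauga
hsa-miR-200c-3p: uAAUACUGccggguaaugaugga
hsa-miR-429: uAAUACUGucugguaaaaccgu

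Those of miR-141 and miR-200c lie on chromosome 12, within MIR200CHG (chr12:6963226-6964447, plus strand). MIR200CHG had 8, 8 and 5 counts in HEC-1A with DMSO, 12, 11 and 2 with AG-205, and 0 in the 6 T-HESC libraries. The host transcript was at least 2.25-fold higher in HEC-1A with DMSO and at least 2.48-fold higher with AG-205, bounds set by its low counts. It was too low to enter the test of AG-205. The small RNAs themselves were not measured, and the other 3 members lie on chromosome 1.

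SNAI2 and TWIST1, a zinc finger and a basic helix-loop-helix repressor, were at the floor in HEC-1A, unlike the other 4 mesenchymal genes. SNAI2, on chromosome 8, had 0, 1 and 2 counts in HEC-1A with DMSO and 3, 1 and 0 with AG-205. T-HESC had 81.7, 97.9 and 101 CPM of SNAI2 with DMSO and 134, 138 and 113 CPM with AG-205. It was at least 372-fold lower in HEC-1A with DMSO and at least 490-fold lower with AG-205, or 479-fold without the library that stood apart.

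TWIST1 (chr7:19020991-19117636, minus strand) had a single count over the 6 HEC-1A libraries. In T-HESC it stood at 30.5, 35.8 and 29.9 CPM with DMSO and at 24.3, 28 and 40 CPM with AG-205. The HEC-1A level was at least 128-fold lower with DMSO and at least 118-fold lower with AG-205, or 130-fold without that library. A count of 0 in HEC-1A allows up to 3 counts, or 0.251 CPM on average over the DMSO libraries.

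The order of the 10 genes within each group was set on CPM per kilobase of the annotated canonical transcript. In HEC-1A with DMSO the order was EPCAM (157), ESRP1 (24.6), CDH1 (17.1) and GRHL2 (2.05), with no overlap between neighbours. ZEB1 (1.06), VIM (0.879) and CDH2 (0.792) followed. ZEB1 overlapped VIM, and VIM overlapped CDH2, over the 3 libraries, and with all annotated exons as the length CDH2 came before VIM. ZEB2 (0.0681) and SNAI2 (0.0396) overlapped each other and changed places with that other length, and TWIST1 had 0. With AG-205 the first 5 places were the same.

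In T-HESC with DMSO, VIM (1940) was far above CDH2 (103), and then came SNAI2 (42.9), TWIST1 (19.7), ZEB1 (13.7) and ZEB2 (8.75), again on CPM per kilobase and with no overlap between neighbours. These 6 kept their order with AG-205, though TWIST1 and ZEB1 then overlapped. EPCAM was seventh in both T-HESC groups, at 0.215 and 0.225, above the 3 epithelial genes at the floor.

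Tested over all genes, 10 of the 10 members passed the threshold between the lines with DMSO (adjusted p under 0.05 and a fold over 2), where 44.6% of the 14789 genes tested passed. Of the members 4 were higher and 6 lower in HEC-1A, against 22.3% of all genes in each direction. With AG-205 in both lines the count was again 10 of 10, against 43.4% of 15201 genes, or 21.7% in each direction. The libraries of the lines did not overlap for any of the 10 members, which held for 76.6% of all genes with DMSO and for 61.9% with AG-205. The genes are known as markers of one or the other cell type, and those near 0 in one line entered the test through the other, so these counts are descriptive. The median line difference with DMSO, with genes at the floor set at their bound, was 8.40 for the epithelial and -7.01 for the mesenchymal genes on the log2 scale, beside 0.02 over all genes tested. With AG-205 these medians were 8.50 and -6.70, beside -0.03, and 8.57 and -6.81, beside 0.04, without the library that stood apart. The share of genes with a larger difference in either direction with DMSO ran from 0.832% for VIM to 17.5% for ZEB1 among the 5 members above the floor in both lines, with EPCAM at 3.15%, CDH2 at 9.09% and ZEB2 at 9.27%. The histogram of line differences shows where the members fall.

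**Figure D2:**
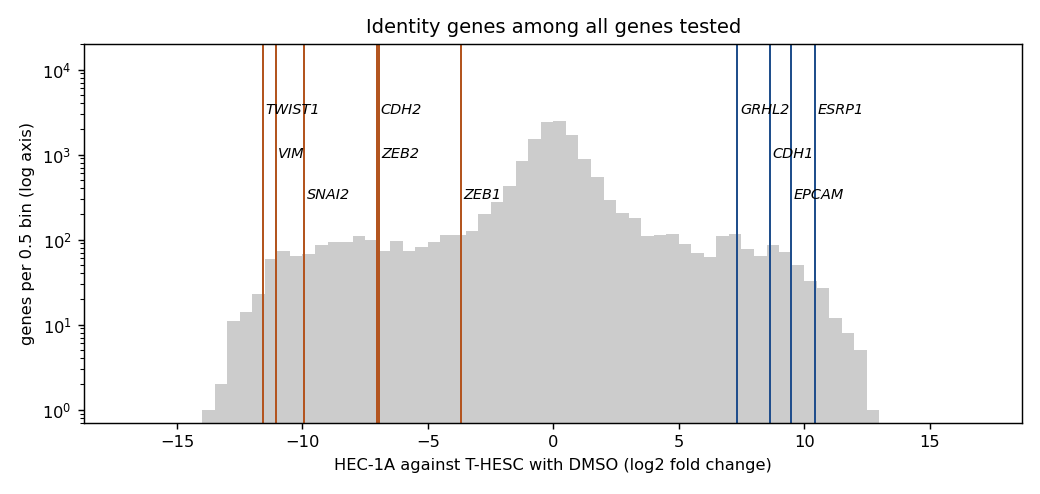
Fitted log2 fold change of HEC-1A against T-HESC with DMSO for all 14789 genes tested, in bins of 0.5 with a log axis of gene counts. Vertical lines mark the 10 members, orange for mesenchymal and blue for epithelial, and ZEB1 at -3.67 is the nearest to 0.

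The line differences with DMSO and with AG-205 come from separate libraries. Plotted against each other, the 10 genes kept their side of 0. The 95% intervals with DMSO and with AG-205 overlapped for EPCAM (9.03 to 9.88 and 8.30 to 10.40), CDH2 (-7.30 to -6.73 and -7.17 to -5.72), VIM (-11.82 to -10.33 and -12.68 to -9.85), ZEB1 (-4.17 to -3.17 and -4.75 to -3.55) and ZEB2 (-7.59 to -6.31 and -7.32 to -5.73). The change itself is tested by the interaction given further on.

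**Figure D3:**
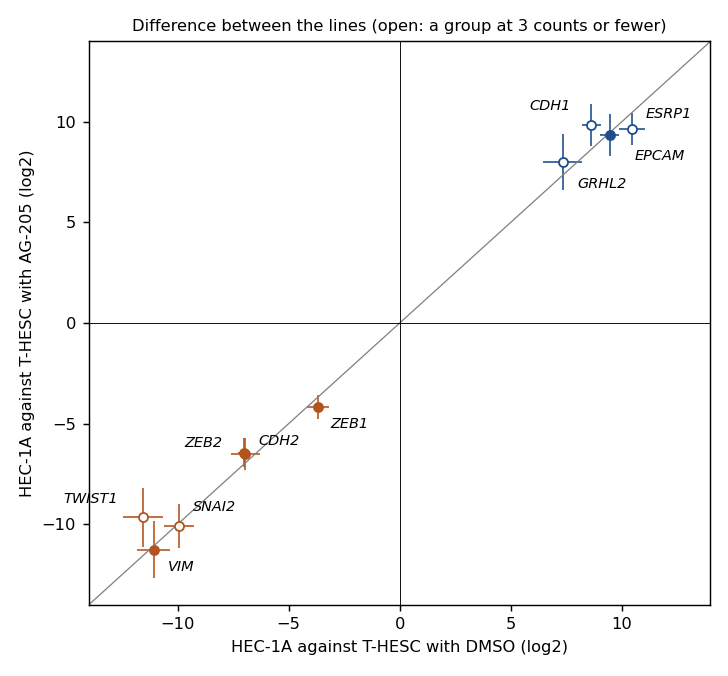
Log2 fold change of HEC-1A against T-HESC with DMSO (x axis) and with AG-205 (y axis), with 95% intervals, and the line of equality in grey. Open points had a group at 3 counts or fewer in every library, so their fitted value is not a bound, and the filled points lie close to the line of equality.

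The second question was whether AG-205 moved these genes within a line. In HEC-1A, 8 members could be tested and 0 were called, by edgeR as by DESeq2, where 2.78% of 14122 genes were called. None had an unadjusted p under 0.05 either, against 26.2% of all genes tested. SNAI2 and TWIST1 were at the floor with and without AG-205. The sterol genes HMGCS1 and INSIG1, the enzyme and the regulator that mark the response to AG-205 here, rose by 2.85 (SE 0.115) and 3.22 (SE 0.116) on the log2 scale in the same libraries (adjusted p = 1.42e-08 and 4.11e-09), and SQLE, another sterol enzyme, rose by 1.67 (SE 0.0869, adjusted p = 9.55e-08).

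The 4 epithelial genes moved by little in HEC-1A. The log2 fold change was 0.07 for CDH1 (95% interval -0.14 to 0.28), -0.10 for EPCAM (-0.33 to 0.12), -0.13 for GRHL2 (-0.44 to 0.17) and 0.05 for ESRP1 (-0.13 to 0.24). A change of 2-fold lies outside each of these intervals. With and without AG-205, the groups overlapped for each of the 4. Across the alternative fits EPCAM ran from -0.21 to -0.03, within the 2-fold limit, and its lowest adjusted p was 0.0442.

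The 4 mesenchymal genes tested in HEC-1A had wider intervals, as their counts were low. VIM differed by 0.07 (-0.61 to 0.75) and ZEB1 by -0.11 (-0.54 to 0.31), and their groups overlapped. CDH2 was 0.29 higher with AG-205 (-0.13 to 0.71, adjusted p = 0.373), and the 3 AG-205 libraries (3.68 to 4.06 CPM) lay above the 3 DMSO libraries (2.79 to 3.41 CPM). ZEB2 differed by 0.83 (SE 0.412, -0.07 to 1.72, adjusted p = 0.229), with 0.885, 1.62 and 0.837 CPM against 0.739, 0.796 and 0.359 CPM. Its groups did not overlap, it passed the low-count filter through the AG-205 libraries, and a 2-fold change lies within its interval. Groups that do not overlap were found in these 2 of the 8 members, beside 31.5% of all genes tested. ZEB2 was called with library quality weights alone among the alternatives, at a value of 1.05 (adjusted p = 0.0471), and the values of this gene ranged from 0.44 to 1.05.

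In T-HESC, the 6 mesenchymal genes could be tested and 0 were called, by edgeR as by DESeq2, where 0.08% of 13753 genes were called by edgeR. None of the 6 had an unadjusted p under 0.05, against 5.38% of all genes. The 4 epithelial genes were too low to test. HMGCS1 rose by 3.74 (SE 0.414), INSIG1 by 3.13 (SE 0.303) and SQLE by 2.48 (SE 0.240) on the log2 scale in T-HESC (adjusted p = 0.0336, 0.0260 and 0.0260). Without the library that stood apart these calls held, at 4.01, 3.11 and 2.55 (adjusted p = 0.00403, 0.00491 and 0.00459). They were lost without some other single libraries, for example without T-HESC DMSO replicate 1, where HMGCS1 was at 3.70, INSIG1 at 3.15 and SQLE at 2.36 with an adjusted p of 0.417.

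SNAI2 had the largest value among the 6, at 0.44 (95% interval -0.05 to 0.93, adjusted p = 0.977), and its 3 AG-205 libraries (113 to 138 CPM) lay above the 3 DMSO libraries (81.7 to 101 CPM). It was the only 1 of the 6 whose groups did not overlap, beside 11% of all genes tested. Without the library that stood apart, its value was 0.39.

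ZEB1 and ZEB2 differed by 0.35 (-0.24 to 0.93) and 0.37 (-0.19 to 0.93) in T-HESC, and by 0.16 and 0.44 without that library. CDH2 differed by -0.30 (-0.89 to 0.29), with 287 and 285 CPM in 2 of the AG-205 libraries but 452 CPM in the third, above each DMSO library. VIM differed by 0.26 (-0.70 to 1.21) and by -0.29 without the library of 8070 CPM, which thus decided its direction. TWIST1 differed by -0.08 (-0.66 to 0.50) and by 0.06 without that library. A 2-fold change lay within the interval of VIM and outside those of CDH2, ZEB1, ZEB2, SNAI2 and TWIST1. The plot of AG-205 effects shows these intervals for both lines.

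**Figure D4:**
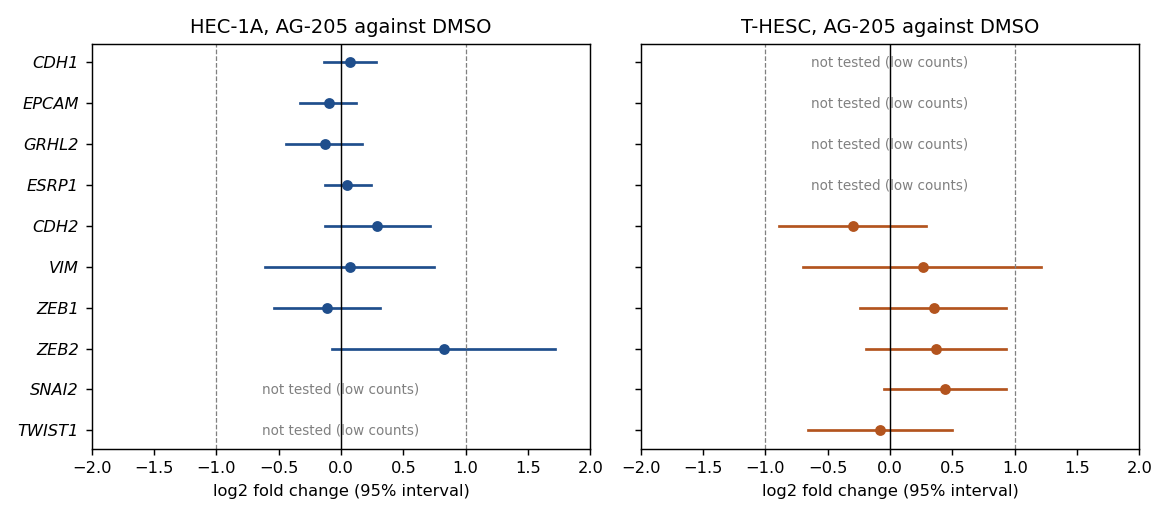
Log2 fold change of AG-205 against DMSO for each member in HEC-1A (left) and T-HESC (right), with 95% intervals from edgeR's quasi-likelihood test. Dashed lines mark 2-fold, genes with too few counts are named as not tested, and each interval drawn includes 0.

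Whether the lines differed in their response was tested as the AG-205 effect in T-HESC minus that in HEC-1A, in 1 fit of the 12 libraries. No member was called, by edgeR or DESeq2, and none had an unadjusted p under 0.05, where 0.174% of 16132 genes were called and 6.35% had such a p. Among the 5 members above the floor in both lines, CDH2 had the lowest p, at -0.58 (SE 0.284, 95% interval -1.19 to 0.04, adjusted p = 0.818). The values were 0.47 for ZEB1 (-0.23 to 1.16), -0.44 for ZEB2 (-1.42 to 0.53), 0.18 for VIM (-1.03 to 1.39) and 0.09 for EPCAM (-1.13 to 1.31). Without the library that stood apart, VIM was at -0.34 and EPCAM, then at the floor in T-HESC with AG-205, at -0.63, whereas CDH2 (-0.46), ZEB1 (0.30) and ZEB2 (-0.36) kept their sign. A 2-fold difference of the effects lies within each of these 5 intervals.

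Transcription and splicing factors related to the members were taken from a list of 18. With DMSO, 15 of them could be tested between the lines, and 5 were called higher and 5 lower in HEC-1A, beside 22.3% of all genes in each direction. OVOL2, a zinc finger repressor of mesenchymal genes, had 97 to 118 counts in HEC-1A with DMSO and 0 in each T-HESC library, at least 34.6-fold. ESRP2, the paralogue of ESRP1, stood at 70.4 ± 4.24 CPM in HEC-1A and at 0.269 ± 0.148 CPM in T-HESC (SD, n = 3), both with DMSO. TWIST2, the paralogue of TWIST1, was at 120 ± 28.2 CPM in T-HESC with DMSO and was at least 476-fold lower in HEC-1A. The homeobox gene PRRX1 and TCF4, a basic helix-loop-helix factor, were at least 293-fold and 504-fold lower in HEC-1A.

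SNAI1, the best known paralogue of SNAI2, did not share its pattern of presence and absence. It had 11 to 16 counts in HEC-1A with DMSO and 17 to 32 in T-HESC with DMSO. The line difference of SNAI1 was -0.97 (SE 0.280, adjusted p = 0.0128) on the log2 scale, short of the 2-fold limit. It passed without HEC-1A DMSO replicate 1 (-1.11) or T-HESC DMSO replicate 3 (-1.14), and with library quality weights (-1.07, adjusted p = 0.0037). With AG-205 it was -0.57 (SE 0.402, adjusted p = 0.268), or -0.83 (adjusted p = 0.0758) without the library that stood apart, and the groups overlapped.

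With AG-205, 1 of the 12 factors tested in HEC-1A was called and 0 of 11 in T-HESC, beside 2.78% and 0.08% of all genes. SNAI3, the remaining SNAI paralogue, went from 6, 10 and 4 counts with DMSO to 85, 97 and 33 with AG-205 in HEC-1A, which is 3.35 on the log2 scale (SE 0.329, adjusted p = 3.31e-05). As its DMSO counts were low, SNAI3 entered this test through the AG-205 libraries, where it is high. The low-count filter thus favoured a rise of SNAI3, and its call is not independent of that filter. In T-HESC it had 13, 6 and 4 counts with DMSO and 9, 17 and 28 with AG-205, a value of 1.2 (SE 0.573, adjusted p = 0.977), or 1.47 without the library that stood apart. The difference of these effects was -2.12 (SE 0.693, adjusted p = 0.525), or -1.85 without it. The exons of SNAI3 share 10.2% of their length with SNAI3-AS1 on the opposite strand, which had 46, 44 and 34 counts with DMSO and 370, 324 and 208 with AG-205 in HEC-1A. As the strand setting of the counting is not stated, reads of these 2 genes cannot be told apart where they overlap.

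OVOL2 and ESRP2 differed by 0.13 (SE 0.155) and -0.30 (SE 0.116, adjusted p = 0.124) with AG-205 in HEC-1A, and SNAI1 by 0.06 (SE 0.331). In T-HESC, TWIST2 differed by -0.11 (SE 0.280) and SNAI1 by -0.33 (SE 0.405). None of these passed the test.

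Epithelial junction and surface genes came from a list of 28. With DMSO, 23 of 25 tested were called higher in HEC-1A and 1 lower, beside 22.3% of all genes in each direction. Those near 0 in T-HESC entered the test through HEC-1A, so these counts are descriptive. The desmosomal genes DSC2 (desmocollin) and PKP2 (plakophilin) had 0 counts in the T-HESC libraries and were at least 81.8-fold and 75.3-fold higher in HEC-1A. The membrane protease ST14 was at least 1070-fold higher, at 275 ± 13.1 CPM (SD, n = 3). The exception was DSP, which encodes desmoplakin, the plaque protein of the desmosome, with a line difference of -3.52 on the log2 scale, thus higher in T-HESC. The median of the list was 7.00, beside 0.02 over all genes tested. P-cadherin, CDH3, was at 5 counts or fewer in the 12 libraries.

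With AG-205 in HEC-1A, 1 of the 25 junction and surface genes tested was called, beside 2.78% of all genes. CLDN4, a claudin of tight junctions, rose from 3906, 3644 and 3273 counts to 10657, 10551 and 5021, or by 1.22 on the log2 scale (SE 0.109, adjusted p = 1.37e-05). In T-HESC, where it had 19 to 37 counts, it differed by 0.21 (SE 0.359), or 0.15 without the library that stood apart. The difference of these effects was -1.0 (SE 0.272, adjusted p = 0.340), or -1.04 (adjusted p = 0.148) without the library that stood apart. Below the 2-fold limit, 5 other genes of the list had an adjusted p under 0.05. With no fold limit the list thus had 6 of 25, beside 11.6% of all genes tested. They were CLDN3 (0.43), CLDN7 (0.50), PRSS8 (0.72) and AP1M2 (0.48), which were higher, and PARD6B (-0.34), which was lower. The median of the list was -0.03, beside 0.01 over all genes.

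The catenins that link cadherins to actin, with the nectins, formed a list of 10. With DMSO, 3 of 9 were called higher and 2 lower in HEC-1A, beside 22.3% of all genes in each direction. NECTIN1 was higher by 3.8 (SE 0.152) and JUP, plakoglobin, by 3.28 (SE 0.423) on the log2 scale, whereas NECTIN3 was lower, at -2.34 (SE 0.227). The alpha-, beta- and p120-catenins were at 0.05 (CTNNA1), 0.55 (CTNNB1) and -0.11 (CTNND1). No gene of this list was called with AG-205 in either line. NECTIN2, at -0.41 in HEC-1A (adjusted p = 0.0135), was below the 2-fold limit.

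Other mesenchymal cadherins and effectors, from a list of 17, were called lower in HEC-1A with DMSO in 16 of 17, beside 22.3% of all genes. Those near 0 in HEC-1A entered the test through T-HESC, so this count is descriptive. CDH11, the cadherin of connective tissue, was at 129 ± 27 CPM in T-HESC and was at least 512-fold lower in HEC-1A. The surface protease FAP and the receptor PDGFRA were at least 385-fold and 1010-fold lower. The exception was S100A4, a small calcium-binding protein (adjusted p = 0.976). With AG-205, none of the list was called, with 9 genes tested in HEC-1A and 17 tested in the stromal line. Of all genes, 2.78% and 0.08% were called in these lines. S100A4 (0.63, adjusted p = 0.0112) and the receptor AXL (-0.39, adjusted p = 0.0392) were below the 2-fold limit in HEC-1A. The median in T-HESC was -0.41, beside 0.02 over all genes, with values from -1.54 to 0.40, and it was -0.09, beside -0.02, without the library that stood apart. CDH11 differed by -0.19 (SE 0.261) there.

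Signalling by TGF-beta, a known inducer of mesenchymal traits, was followed together with BMP signalling over 17 genes. With DMSO, 1 of 16 was called higher in HEC-1A and 8 lower, beside 22.3% of all genes in each direction. LTBP1, which binds latent TGF-beta, was at least 567-fold lower, and ID3, an inhibitor of basic helix-loop-helix factors, was at -4.42 (SE 0.0955).

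With AG-205, 0 of 17 genes of this list were called in T-HESC, beside 0.08% of all genes. In HEC-1A 1 of 14 was called, beside 2.78%, and this was the ligand gene TGFB1. It rose from 64, 57 and 68 counts to 189, 193 and 109, or by 1.34 on the log2 scale (SE 0.151, adjusted p = 0.000107), while T-HESC held 2049 counts or more, with a value of -0.07 (SE 0.321), or 0.19 without the library that stood apart. The difference of these effects was -1.39 (SE 0.368, adjusted p = 0.335), or -1.12 (adjusted p = 0.0703) without the library that stood apart. It passed without T-HESC AG-205 replicate 3 (-1.70, adjusted p = 0.0461), with no filter on low counts (-1.35, adjusted p = 0.0217) and with library quality weights (-1.37, adjusted p = 0.0045). TGFB1 shares 6.59% of its exon length with HNRNPUL1 on the opposite strand. In HEC-1A, HNRNPUL1 had 7010, 7518 and 6411 counts with DMSO and 7502, 6503 and 3596 with AG-205. The part of its reads in the count of TGFB1 was not tested. Below the 2-fold limit, ID2 (0.55) and ID3 (0.73) were higher in HEC-1A with AG-205, and SMAD3 (-0.74) and TGFBR3 (-0.78) were lower, at an adjusted p under 0.05. With no fold limit the list thus had 3 higher and 2 lower of 14, beside 11.6% of all genes in either direction. The plot of the gene lists shows the spread of these effects.

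**Figure D5:**
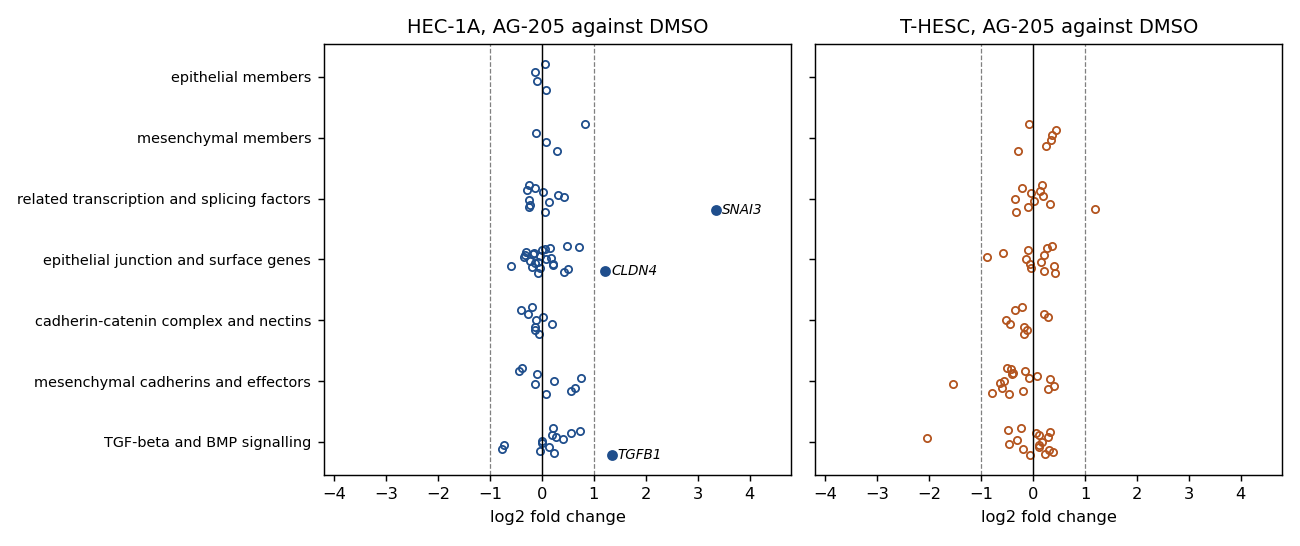
Log2 fold change of AG-205 against DMSO in HEC-1A (left) and T-HESC (right) for the members and 5 lists of related genes. Each circle is a gene, filled and named where it was called (adjusted p under 0.05 and a fold over 2), and dashed lines mark 2-fold. SNAI3, CLDN4 and TGFB1 are named in HEC-1A and no gene in T-HESC.

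Among the marker lists, KRT19, a keratin of simple epithelia, was also called in HEC-1A with AG-205, at 1.09 (SE 0.0861, adjusted p = 4.59e-06). In T-HESC it differed by 1.05 (SE 0.227, adjusted p = 0.312), and the 3 AG-205 libraries (177 to 249 CPM) lay above the 3 DMSO libraries (103 to 110 CPM). KRT19 was called in T-HESC by DESeq2 (1.05, adjusted p = 0.00287) and in a fit of all 12 libraries (1.06, adjusted p = 0.00392), and stood at 0.94 (adjusted p = 0.111) without the library that stood apart. With DMSO, KRT19 stood at 100 ± 3.41 CPM in HEC-1A and at 106 ± 3.87 CPM in T-HESC (SD, n = 3), so it did not separate the lines. Below the 2-fold limit in HEC-1A with AG-205, the epithelial marker KRT8 was higher (0.48, adjusted p = 0.0058, edgeR). The stromal marker NT5E was lower there (-0.32, adjusted p = 0.0318, edgeR).

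Genes on the opposite strand touch several members. VIM-AS1 covers 12.7% of the exon length of VIM and had 5 to 32 counts in T-HESC and 0 in HEC-1A. In T-HESC, VIM had 32035 counts or more. ZEB1-AS1 covers 4.58% of that of ZEB1 and had 56 to 78 counts in HEC-1A with DMSO, beside 61 to 97 for ZEB1 itself. In T-HESC with DMSO it had 41 to 56, beside 839 to 1032 for ZEB1. Its line difference was 0.43 (SE 0.185, adjusted p = 0.0636), against -3.67 for ZEB1. How many reads counted for ZEB1 in HEC-1A stem from the antisense gene cannot be told apart. ZEB2-AS1 had 0 counts in the 12 libraries.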

How the data were processed

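Processing followed the submitters' notes and the paper's methods up to the count table. The authors selected polyA RNA, sequenced it as paired reads of 150 bases, used Trimmomatic 0.38 for trimming and HISAT2 2.1.0 for alignment to GRCh38, and counted reads with featureCounts (Subread 2.0.0) on Ensembl 94. The deposited values are raw counts per gene, without normalization. The strand setting and the handling of reads with several matches are not given in the sources used here.

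Members and lists were chosen with earlier results of these data known. Symbols were matched to Ensembl IDs through a table of gene names, which matched the 10 members. Groups were taken from the sample labels. Each comparison was fitted with edgeR 4.0.16 (R 4.3.3) on its own groups, with TMM, filterByExpr and glmQLFTest, and adjusted by Benjamini-Hochberg over all genes tested. A gene was called at an adjusted p under 0.05 and an absolute log2 fold change over 1. Between the lines, a list gene near 0 in 1 line passed the low-count filter through the other. The SE came from the F value, and folds against a group at the floor were set against 3 counts per library, without counting error. The genes named are the members, SNAI1, ESRP2, CDH3, CDH11, OVOL2, TWIST2, each list gene called for AG-205 or for the difference between the lines, the 3 called genes with the largest line difference of each further list, 3 sterol genes and antisense genes of members; DSP, the catenins, S100A4, some markers and genes under the 2-fold limit were named after their values were seen. Gene models came from GENCODE 44. The procedure was tested on simulated data.

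Libraries with the same replicate number did not deviate together (3 of 12 correlations were over 0.1, from -0.425 to 0.206), so the numbers were not used to pair samples. Pairs with different numbers ran from -0.462 to 0.62, both within T-HESC. Whether libraries with different numbers share an experiment is not stated and was not tested. Within groups, library pairs had a chi-square of 1.79 to 207 per degree of freedom, so none was a copy. The coefficient of biological variation common to all genes in the AG-205 fits was 10.1% for HEC-1A and 33.6% for T-HESC. The width of an interval depends on the counts and spread of its own gene as well. The alternatives were DESeq2 1.42.0, RLE and upper-quartile scaling, no filter, a mean of at least 1 CPM, a fit of all 12 libraries, the replicate block, no fold limit, an adjusted p under 0.01, library quality weights (limma 3.58.1) and leaving out each library. Plots were drawn with matplotlib 3.10.9.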

Additional observations from a re-analysis of the deposited data

Results flagged for a closer look

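BMP4, a ligand of the TGF-beta and BMP list, differed in its response to AG-205 between the lines by a test of the difference itself, at -2.44 on the log2 scale (T-HESC minus HEC-1A, SE 0.426, adjusted p = 0.0489, edgeR). T-HESC had 65, 74 and 39 counts with DMSO and 13, 11 and 19 with AG-205, and HEC-1A had 28, 33 and 24 with DMSO and 38, 51 and 25 with AG-205. Within T-HESC the effect was -2.05 (SE 0.400, adjusted p = 0.211) and within HEC-1A 0.40 (SE 0.231, adjusted p = 0.304), so neither passed alone in these fits. The T-HESC effect was called by DESeq2 (-2.06, adjusted p = 0.00187), with no filter on low counts (-2.07, adjusted p = 0.00982), in a fit of all 12 libraries (-2.04, adjusted p = 0.00579) and with library quality weights (-2.51, adjusted p = 0.0106). The counts are low. With the replicate block the adjusted p of the difference was 0.161. With single libraries left out, the value stayed between -2.70 and -2.23, and the call was lost in 10 of the 12 fits (adjusted p up to 0.213). The fit without AG-205 replicate 1 of T-HESC gave -2.44 (adjusted p = 0.0296). No member of the 10 was picked out in this way.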

How the results depend on the processing

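Between the lines, the 10 members kept their direction and their call under each alternative with DMSO and with AG-205, 140 values in each. Upper-quartile scaling moved the median of all genes by over 0.1, to 0.17 with DMSO and 0.204 with AG-205, beside 0.015 and -0.028. The number of genes called with DMSO was 10664 with no fold limit and 6593 with it.

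For AG-205 in HEC-1A, library quality weights called 1 member (ZEB2). The number of genes called, 393, was 141 in a fit of all 12 libraries and 1643 with no fold limit. In T-HESC it was 11, but 128 with DESeq2, 181 with no filter, 160 in a fit of all 12 libraries, 333 with library quality weights, 0 at an adjusted p under 0.01 and 0 to 72 with single libraries left out, the highest without AG-205 replicate 1. For the difference of the effects it was 28, but 90 with DESeq2, 141 with no filter, 6 with the replicate block, 380 with library quality weights, 4 at an adjusted p under 0.01 and 4 to 80 with single libraries left out. The causes were not tested. The replicate block changed no call on a member, and gave 363 and 9 genes called in HEC-1A and T-HESC.

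Values close to 0 changed sign. With single libraries left out, AG-205 in HEC-1A gave -0.16 to 0.38 for VIM, -0.26 to 0.06 for ZEB1, -0.14 to 0.22 for SNAI1 and -0.01 to 0.24 for OVOL2. In T-HESC these ranges were -0.29 to 0.46 for VIM, -0.30 to 0.06 for TWIST1, -0.30 to 0.04 for TWIST2 and -0.37 to 0.19 for TGFB1, and for the difference of the effects -0.63 to 0.48 for EPCAM and -0.34 to 0.42 for VIM. Library quality weights gave -0.05 for SNAI1 in HEC-1A, -0.34 for VIM in T-HESC, and -0.79 for EPCAM and -0.45 for VIM in the difference. With 3 libraries a group, members with few counts, such as ZEB2 in HEC-1A, have intervals that include a 2-fold change, and the epithelial genes in T-HESC could not be tested.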
